A study of Homo sapiens with 6 samples.

Results

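The genes of the proteasome, the protease complex that destroys ubiquitin-tagged proteins, were examined in PANC1 cells treated with gemcitabine. Members were the genes whose current symbol begins with PSMA, PSMB, PSMC, PSMD, PSME, PSMF or PSMG followed by a digit, other than PSMB8 and PSMB9 and without readthrough genes. They were found by Ensembl identifier, and 47 of the 20461 protein-coding genes in the deposited table met the rule. Of these, 45 encode proteasome subunits, regulators or assembly factors, and 2 (PSMC3IP and PSME3IP1) encode interacting proteins whose symbols share the letters. PSMB3, a subunit of the core, was not analysed here.

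PANC1 is an established line of human pancreatic ductal carcinoma. Cells received vehicle (0.1% DMSO) or 50 nM gemcitabine, a chain-terminating deoxycytidine analogue used against pancreatic cancer, and RNA was taken after 48 h. RNA-seq was made from 2 biological replicates per condition, and DNaseI-seq, which maps open chromatin, from 1 library per condition. All cells came from a single line. The study used the expression changes to help place the targets of kinase inhibitors that sensitise cells to gemcitabine in a network.

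The proteasome has a barrel-shaped core particle built from stacked rings. The outer alpha rings gate the entrance, and the inner beta rings carry the proteolytic sites. A regulatory particle caps the barrel. Its base contains a ring of ATPases that unfold the substrate, and its lid contains the enzyme that removes ubiquitin. Other activators can take the place of that cap, and dedicated chaperones help the rings to form without entering the finished complex.

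After gemcitabine, 25 of the 30 constitutive subunits of the proteasome measured here did not pass the test (16.7% passed, against 38.5% of all genes), while several regulators and assembly chaperones rose or fell. Scaled to library totals, 13 of the 30 rose and 0 fell, beside 6050 of the 14854 genes tested that passed in either direction. PSME2 and PSME1, the paired subunits of the interferon-inducible PA28 activator, rose with log2 fold changes of 0.59 ± 0.09 and 0.29 ± 0.07 (SE, n = 2 per condition). PSME3, which forms the nuclear form of the same activator, fell by 0.30 on the log2 scale (SE 0.06). Scaled to library totals, PSME3 stood at -0.19. Of the 4 chaperones that assemble the core, PSMG1, PSMG3 and PSMG4 fell, with log2 fold changes from -0.57 to -0.21. No ATPase of the base passed the test, although PSMC3 did when scaled to library totals.

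The promoters of activators that rose (PSME1, PSME2) or fell (PSME3), of a chaperone that fell (PSMG1) and of a catalytic subunit that rose (PSMB5) are shown to set their motifs beside these changes. The sequences are from the RefSeq promoter table (assembly GRCh38.p14), 250 bases before to 50 after the start, and were placed on hg19 by an exact match. Capitals mark the CCAAT box (CCAAT, or ATTGG on the other strand) and the core of the antioxidant response element (TGACNNNGC) bound by NFE2L1 and its relatives. The order is PSME1 (chr14:24605153-24605452, plus strand), PSME2 (chr14:24615770-24616069, minus strand), PSME3 (chr17:40985164-40985463, plus strand), PSMG1 (chr21:40555328-40555627, minus strand) and PSMB5 (chr14:23504380-23504679, minus strand).
PSME1: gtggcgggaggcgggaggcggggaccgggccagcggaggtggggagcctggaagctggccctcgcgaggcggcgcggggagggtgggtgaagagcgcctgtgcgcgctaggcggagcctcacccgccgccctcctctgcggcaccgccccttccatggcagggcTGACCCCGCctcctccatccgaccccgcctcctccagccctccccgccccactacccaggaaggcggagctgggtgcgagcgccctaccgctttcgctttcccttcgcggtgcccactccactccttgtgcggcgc
PSME2: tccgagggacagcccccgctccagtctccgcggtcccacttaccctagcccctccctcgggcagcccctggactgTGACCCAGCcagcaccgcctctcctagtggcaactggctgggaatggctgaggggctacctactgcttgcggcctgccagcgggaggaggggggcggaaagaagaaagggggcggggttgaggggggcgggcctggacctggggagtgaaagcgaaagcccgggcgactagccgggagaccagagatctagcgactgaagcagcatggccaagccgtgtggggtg
PSME3: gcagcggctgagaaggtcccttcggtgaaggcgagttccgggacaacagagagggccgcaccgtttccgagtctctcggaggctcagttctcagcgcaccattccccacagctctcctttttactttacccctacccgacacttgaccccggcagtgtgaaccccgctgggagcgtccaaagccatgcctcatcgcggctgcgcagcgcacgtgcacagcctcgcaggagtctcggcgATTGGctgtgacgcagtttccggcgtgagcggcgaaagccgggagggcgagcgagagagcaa
PSMG1: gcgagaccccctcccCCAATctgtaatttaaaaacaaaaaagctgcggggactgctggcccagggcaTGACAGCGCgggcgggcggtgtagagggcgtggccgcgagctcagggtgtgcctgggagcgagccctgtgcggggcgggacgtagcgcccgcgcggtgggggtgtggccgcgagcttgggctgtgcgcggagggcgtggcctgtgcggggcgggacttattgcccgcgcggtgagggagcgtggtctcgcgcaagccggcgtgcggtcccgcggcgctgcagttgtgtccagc
PSMB5: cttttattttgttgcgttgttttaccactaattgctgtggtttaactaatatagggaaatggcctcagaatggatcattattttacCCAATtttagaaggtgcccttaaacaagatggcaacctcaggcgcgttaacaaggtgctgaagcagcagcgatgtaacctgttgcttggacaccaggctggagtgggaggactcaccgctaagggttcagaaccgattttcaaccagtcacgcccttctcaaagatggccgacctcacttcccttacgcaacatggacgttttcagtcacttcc

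With the start base as position 0, the antioxidant response element core lay at -86 to -78 in PSME1, at -175 to -167 in PSME2 and at -183 to -175 in PSMG1. PSMG1 also held a CCAAT box at -235 to -231, PSMB5 one at -164 to -160, and PSME3 one on the other strand at -12 to -8. No capital stretch in these 5 windows overlapped another of the motifs searched. The element core was thus present in 2 genes that rose and in 1 that fell. Of the 9 members past the test that had a promoter in the table, 3 held this core and 4 the CCAAT box. PSMB4, PSMD11 and PSMG4, which are not shown, held neither.

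The RefSeq table held a promoter for 41 members, and PSMA7, PSMB1, PSMB6, PSMB7, PSMD4 and PSMG3 were not in it. Both strands of each window were searched. The antioxidant response element core was found in 11 of 41 member promoters (26.8%), against 14.3% of 15843 protein-coding promoters. The ETS core (CCGGAAG) was found in 14 (34.1%, against 14.2%), the CCAAT box in 19 (46.3%, against 36.4%) and the GC box (GGGCGG) in 27 (65.9%, against 58.5%). The nuclear respiratory factor core (TGCGCA) was found in 5 (12.2%, against 10.8%), the TATA box (TATAAA) in 5 (12.2%, against 9.63%) and the AP-1 core (TGANTCA) in 1 (2.44%, against 5.75%). These shares describe letters in a window and were not tested.

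The 4 libraries held 13194533 to 15766237 fragments on protein-coding genes, and levels are given as CPM, fragments scaled to the size of the library. A count of 0 allows up to 3 fragments, or 0.190 to 0.227 CPM, for counting error only. Members took 0.598% and 0.604% of the fragments in vehicle and 0.686% and 0.628% in gemcitabine. The epithelial keratins KRT8, KRT18 and KRT7 and the mesenchymal VIM each had 5963 to 17660 fragments in every library, and KRT19 had 45, 45, 94 and 88. The leukocyte gene PTPRC had 2 to 9 fragments, CPA1 of acinar cells 0 or 1, and CD3E, PRSS1 and INS had 0. Gemcitabine replicate 1 exceeded replicate 2 in 39 of the 46 tested members, with a median log2 difference of 0.10, against 41.6% of 8713 genes at or above the level of the lowest tested member other than PSMA8. The vehicle replicates were split, with replicate 1 higher in 22 members.

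Of the 47 members, 46 had at least 10 fragments over the 4 libraries and were tested on fragment counts, together with 14854 genes in all, by the quasi-likelihood test of edgeR with Benjamini-Hochberg adjustment. The exception was PSMB11, the core subunit of thymic epithelium, with 0 fragments in all 4 libraries. The study's criteria were then applied, namely a fold above 1.5, a mean of 0.1 FPKM or more in either condition and condition means that differ by 1 FPKM or more, with the adjusted p under 0.05. FPKM is the deposited level per kilobase of transcript and per library size. By these criteria 1 member was called higher (5.69% of all genes tested) and 0 lower (4.42%), beside 10.1% of all genes in either direction. The called member was PSME2, whose fold of 1.501 lay just past the limit. At an unadjusted p under 0.05 in edgeR, 7 members were higher and 6 lower. At least 38.5% of all genes pass that cut, since that share passes after adjustment. DESeq2 also called 0 members lower.

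At an adjusted p under 0.05 alone, 6 members rose (18.5% of all genes tested) and 5 fell (20% of all genes tested). Together they were 23.9% of the tested members, against 38.5% of all genes. The median log2 fold change was 0.02 over the members and 0.0069 over all genes. Without gemcitabine replicate 1 the median of the members was -0.01, and without gemcitabine replicate 2 it was 0.07. The medians of all genes were then -0.0016 and 0.0019. Without vehicle replicate 1 or without vehicle replicate 2, only PSME2 and PSMG1 passed. Scaled to library totals, which raised the median of all genes from 0.0069 to 0.117, 17 members rose and 3 fell. At that scale 6050 of the 14854 genes tested passed in either direction. The libraries did not overlap between conditions in 15 members that were higher (35% of all genes) and 11 that were lower (34.7%). In bulk libraries, fewer cells of a type and less RNA per cell cannot be told apart.

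**Figure D1:**
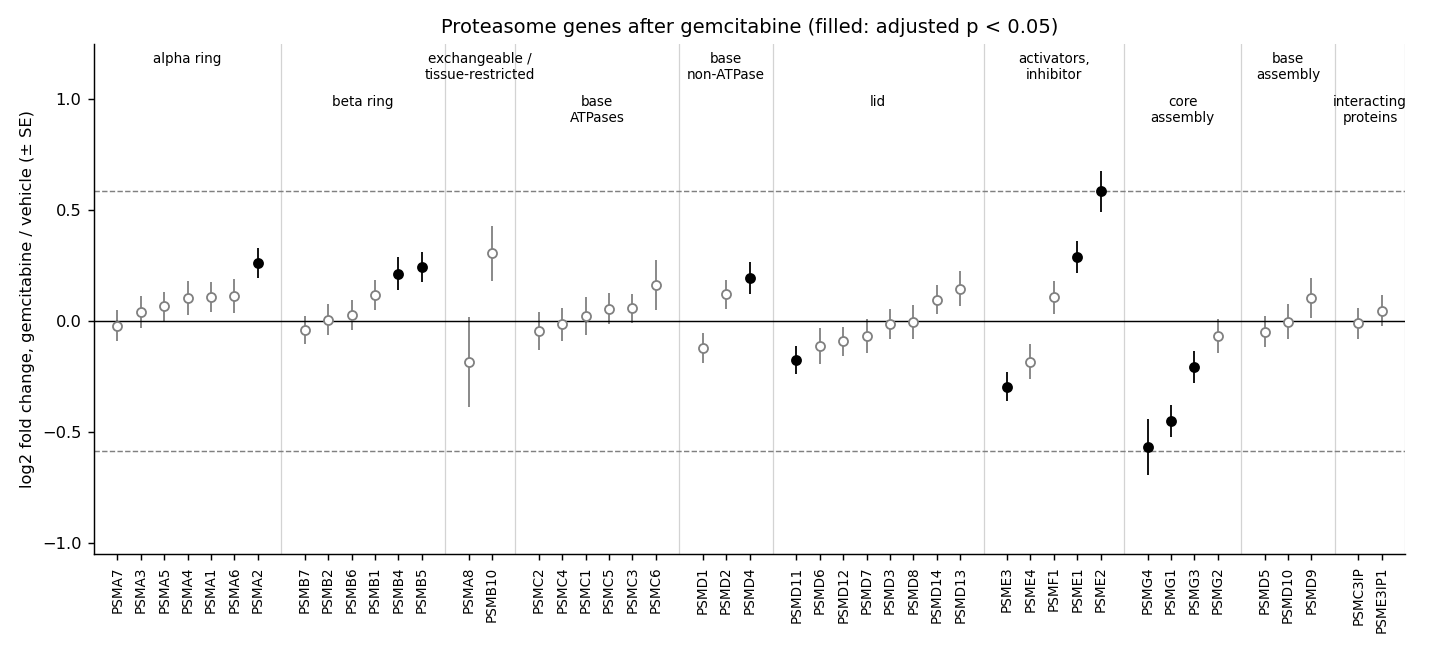
Log2 fold change (gemcitabine over vehicle, ± SE, n = 2 per condition) of the 46 tested members, grouped by place in the complex and ordered within each group. Filled points have an adjusted p under 0.05 (edgeR) and dashed lines mark a fold of 1.5 either way. The core particle lies mostly above 0, while the 4 core assembly chaperones lie below it, although PSMG2 turns to 0.04 when scaled to library totals.

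The alpha ring, which opens and closes the barrel, had 7 measured subunits, of which 1 rose and 0 fell (median log2 fold change 0.10). The member that rose was PSMA2, with 151 and 148 CPM in vehicle and 187 and 171 CPM in gemcitabine. Its conditions did not overlap (log2 fold change 0.26 ± 0.07, adjusted p = 0.00756, edgeR). PSMA2 shares 94.7% of its exonic bases with an overlapping gene on the same strand, ENSG00000256646, which had 505 and 495 fragments in vehicle and 360 and 311 in gemcitabine. With the fragments of both genes added, PSMA2 gave 0.15 ± 0.07 and did not pass (adjusted p = 0.0942, edgeR), an alternative chosen after the data were seen. The other alpha subunits had log2 fold changes from -0.02 (PSMA7) to 0.11 (PSMA6), of which PSMA6 was marked by Cuffdiff as failed in 3 libraries.

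Of the 6 measured subunits of the beta ring, PSMB4 and PSMB5 rose and 0 fell (median log2 fold change 0.07). PSMB5, which carries the chymotrypsin-like site and is the target of bortezomib, had 129 and 122 CPM in vehicle and 154 and 143 CPM in gemcitabine. The conditions did not overlap (log2 fold change 0.24 ± 0.07, adjusted p = 0.0120, edgeR). PSMB4, a structural subunit that closes the ring, had 243 and 236 CPM in vehicle and 297 and 258 CPM in gemcitabine. It too did not overlap (log2 fold change 0.21 ± 0.07, adjusted p = 0.0337, edgeR), although without gemcitabine replicate 1 its value was 0.11 and was not past the threshold.

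The remaining catalytic subunits did not pass the test. PSMB6, which carries the caspase-like site, had 104 and 103 CPM in vehicle and 109 and 103 CPM in gemcitabine (log2 fold change 0.03 ± 0.07, adjusted p = 0.783, edgeR). PSMB7, which carries the trypsin-like site, had 362 and 363 CPM in vehicle and 358 and 347 CPM in gemcitabine (log2 fold change -0.04 ± 0.06, adjusted p = 0.654, edgeR). PSMB6 overlapped between conditions, while PSMB7 was slightly lower in both gemcitabine libraries by CPM but turned to 0.07 when scaled to library totals and was higher in both by FPKM (330 and 315 in vehicle, 390 and 376 in gemcitabine).

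PSMB10 replaces PSMB7 in the immunoproteasome, a form with altered cleavage that cells make after interferon. It had 16.9 and 15.1 CPM in vehicle and 21.7 and 17.8 CPM in gemcitabine. The conditions did not overlap (log2 fold change 0.31 ± 0.12, adjusted p = 0.0644, edgeR). When scaled to library totals PSMB10 passed, at 0.42 (adjusted p = 0.0215, edgeR). By FPKM, a level per length of transcript, PSMB10 stood at 0.101 and 0.0980 of PSMB7 in vehicle and at 0.118 and 0.0976 in gemcitabine, so that the conditions overlapped. As fragments per kilobase of the canonical transcript the ratio was 0.0469 and 0.0418 in vehicle and 0.0611 and 0.0515 in gemcitabine, without overlap. The other inducible subunits, PSMB8 and PSMB9, lie outside the rule used here and had log2 fold changes of 0.37 (adjusted p = 0.00276, edgeR) and 0.77 (adjusted p = 0.000628, edgeR).

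PSMA8 takes the place of PSMA7 in the testis. It had 77 and 99 fragments in vehicle and 80 and 63 in gemcitabine, and its FPKM ranged from 0.075 to 0.096. The conditions overlapped, and it did not pass (log2 fold change -0.18 ± 0.20, adjusted p = 0.510, edgeR). Both condition means lay under the 0.1 FPKM that a call needs. The measures of level disagreed, with PSMA8 over PSMA7 in vehicle at 0.000195 and 0.000234 by FPKM. As fragments per kilobase of the canonical transcript this ratio was 0.00778 and 0.00931. The cause was not tested.

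The regulatory particle had 17 measured subunits, of which 1 rose and 1 fell (median log2 fold change -0.0048, which turns to 0.11 when scaled to library totals). None of the 6 ATPases of the base (PSMC1 to PSMC6) passed the test, with log2 fold changes from -0.05 (PSMC2) to 0.16 (PSMC6). Scaled to library totals, PSMC3 passed, at 0.17 (adjusted p = 0.0476, edgeR). PSMC6 was uneven between the gemcitabine replicates, at 56.8 and 42.0 CPM against 42.4 and 45.8 CPM in vehicle. PSMC1 shares 82.7% of its exonic bases with NRDE2 on the opposite strand, and the kit used does not mark strand, so that reads of the pair cannot be told apart there.

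Of the other base subunits, PSMD4, a receptor that binds ubiquitin chains, had 104 and 102 CPM in vehicle and 124 and 111 CPM in gemcitabine. It rose without overlap (log2 fold change 0.19 ± 0.07, adjusted p = 0.0468, edgeR), although without gemcitabine replicate 1 it stood at 0.11 and did not pass. It did not pass in DESeq2 either (adjusted p = 0.112). PSMD1 and PSMD2, the large scaffolds of the base, did not pass, at -0.12 and 0.12. PSMD2 passed when scaled to library totals, at 0.23 (adjusted p = 0.00835, edgeR).

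In the lid, 1 of 8 measured subunits fell and 0 rose (median log2 fold change -0.04), which turns to 2 that rose and 0 that fell when scaled to library totals (median 0.07). PSMD11, a scaffold that ties the lid to the core, had 284 CPM in both vehicle libraries and 251 CPM in both gemcitabine libraries. The replicates were within 1 CPM of each other and the conditions did not overlap (log2 fold change -0.18 ± 0.06, adjusted p = 0.0416, edgeR). Scaled to library totals, PSMD11 stood at -0.07 and did not pass (adjusted p = 0.394, edgeR). PSMD14, the enzyme that removes ubiquitin, had a log2 fold change of 0.10 and did not pass. When scaled to library totals it passed, at 0.21 (adjusted p = 0.0234, edgeR).

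The activators and the inhibitor bind the ends of the core. PSME2 had 31.9 and 31.1 CPM in vehicle and 50.9 and 43.5 CPM in gemcitabine. PSME2 has 6 named pseudogenes, and its fragment values were whole in all 4 libraries. Reads were assigned to protein-coding genes only, so whole values cannot show whether reads came from pseudogenes. Both gemcitabine libraries lay above both vehicle libraries (log2 fold change 0.59 ± 0.09, adjusted p = 0.000182, edgeR). Its adjusted p stayed under 0.05 in 11 of 13 alternative fits, in which its log2 fold change ranged from 0.47 to 0.70. It met all the call criteria in 8 of those fits, but not without gemcitabine replicate 1 (0.47) or without vehicle replicate 2 (0.58).

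PSME1 had 57.6 and 56.3 CPM in vehicle and 68.7 and 70.6 CPM in gemcitabine. The conditions did not overlap (log2 fold change 0.29 ± 0.07, adjusted p = 0.00511, edgeR). PSME3 had 303 and 296 CPM in vehicle and 243 and 245 CPM in gemcitabine. It was lower in both gemcitabine libraries (log2 fold change -0.30 ± 0.06, adjusted p = 0.00217, edgeR). Over the alternative fits PSME3 ranged from -0.30 to -0.11. It stood at -0.19 when scaled to library totals, where it passed, but it did not pass in limma on FPKM. By FPKM the fall was smaller, at 172 in both vehicle libraries and 153 and 167 in gemcitabine. Without vehicle replicate 1 the values were 0.31 for PSME1 and -0.27 for PSME3, and without replicate 2 they were 0.28 and -0.30, and neither gene passed.

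These opposing changes altered the balance of the activator genes. The summed FPKM of PSME1 and PSME2 over that of PSME3 was 0.796 and 0.707 in vehicle and 1.30 and 1.13 in gemcitabine, while PSME3 stayed above each of the pair alone in every library. Counted as fragments per kilobase of the canonical transcript, an alternative added after the data were seen, the ratio was 1.05 in both vehicle libraries and 1.77 and 1.66 in gemcitabine. Both measures rose without overlap, but only FPKM crossed 1.

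PSME4, the large activator PA200 found in the nucleus, had 162 and 175 CPM in vehicle and 138 and 159 CPM in gemcitabine. It was lower without overlap but did not pass (log2 fold change -0.18 ± 0.08, adjusted p = 0.0751, edgeR). PSMF1, which encodes an inhibitor of the core, had 59.4 and 56.2 CPM in vehicle and 60.5 and 64.0 CPM in gemcitabine (log2 fold change 0.11 ± 0.07, adjusted p = 0.280, edgeR). The PSMF1 libraries lay close together, and those of gemcitabine were the higher. PSMF1 passed when scaled to library totals, at 0.22 (adjusted p = 0.0287, edgeR).

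**Figure D2:**
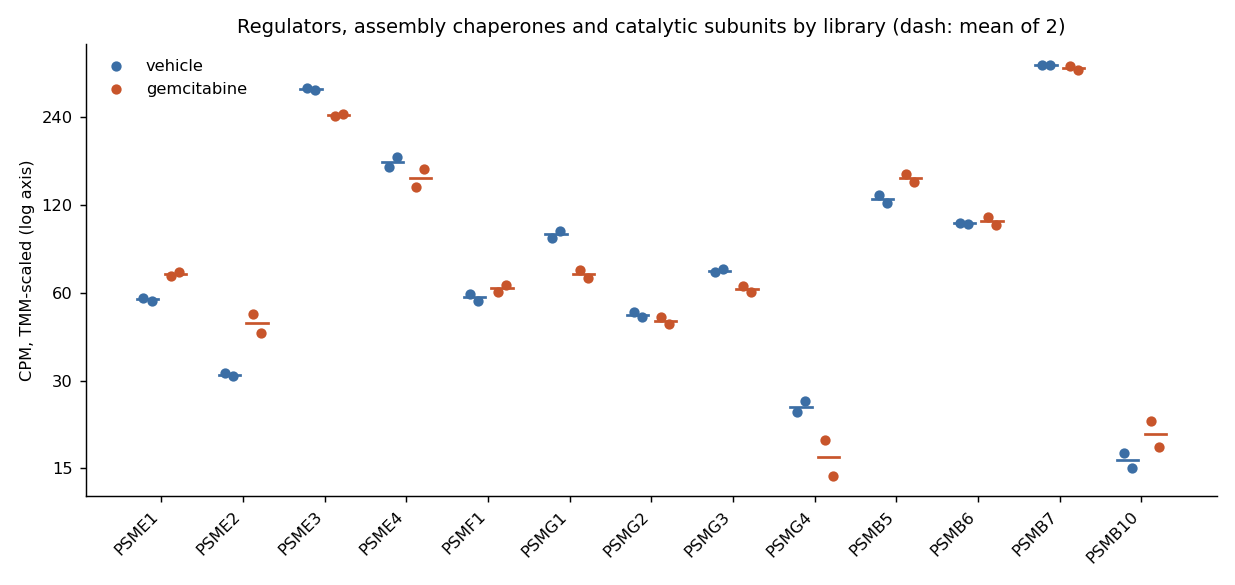
TMM-scaled CPM (log axis) of regulators, core assembly chaperones and catalytic subunits, with 1 point per library and a dash at the mean of the 2 libraries. PSME1 and PSME2 are higher in both gemcitabine libraries, PSME3, PSMG1, PSMG3 and PSMG4 are lower in both, and PSMB6 overlaps.

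The core assembly chaperones work as the pairs PSMG1 with PSMG2 and PSMG3 with PSMG4, which help to order the alpha ring. Of these 4 genes 3 fell and 0 rose (median log2 fold change -0.33), beside 20% of all genes that fell. Scaled to library totals (median -0.22) or in DESeq2, 2 of the 4 fell. PSMG1 had 92.5 and 97.5 CPM in vehicle and 71.6 and 67.4 CPM in gemcitabine, with a clear gap between the conditions. It fell by 0.45 on the log2 scale (SE 0.07, adjusted p = 0.000178, edgeR) and stayed under an adjusted p of 0.05 in 12 of 13 alternative fits. Its partner PSMG2 had 51.3 and 49.5 CPM in vehicle and 49.4 and 46.8 CPM in gemcitabine. The PSMG2 libraries almost met, and it did not pass (log2 fold change -0.07 ± 0.08, adjusted p = 0.519, edgeR), and it turned to 0.04 when scaled to library totals.

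PSMG4 had 23.3 and 25.5 CPM in vehicle and 18.7 and 14.2 CPM in gemcitabine. The gemcitabine replicates differed but both lay below vehicle (log2 fold change -0.57 ± 0.13, adjusted p = 0.00259, edgeR). Without gemcitabine replicate 1 its value was -0.78 and met the call criteria, and without replicate 2 it was -0.38. PSMG3 had 70.6 and 72.2 CPM in vehicle and 63.2 and 60.4 CPM in gemcitabine, again without overlap (log2 fold change -0.21 ± 0.07, adjusted p = 0.0316, edgeR). Scaled to library totals, PSMG3 stood at -0.10 and did not pass (adjusted p = 0.295, edgeR), nor did it without gemcitabine replicate 2 (-0.17) or in DESeq2 (adjusted p = 0.138).

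The chaperones of the base, PSMD5, PSMD9 and PSMD10, which hold the ATPases apart until the ring closes, did not pass and ranged from -0.05 to 0.10. The interacting proteins PSMC3IP, which acts in meiotic recombination, and PSME3IP1, which binds PSME3, were at -0.01 and 0.05. PSMC3IP shares 50.1% of its exonic bases with MLX on the opposite strand.

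Levels of different subunits were compared by FPKM. The 30 constitutive subunits of the finished complex spanned 9.51-fold and 10.8-fold in vehicle and 9.76-fold and 14.8-fold in gemcitabine, from lowest to highest. PSMD2, a scaffold, and PSMA7, of the alpha ring, had the highest mean FPKM in vehicle, at 415 and 414, and Cuffdiff marked PSMD2 as failed in 1 library. The median of the 13 core subunits was 217 and 210 FPKM in vehicle and 258 and 242 FPKM in gemcitabine. The median of the 6 ATPases was 65.5 and 63.1 FPKM in vehicle and 78.9 and 62.5 FPKM in gemcitabine. Core subunits thus stood 3.32-fold above the ATPases in both vehicle libraries, and 3.28-fold and 3.87-fold above them in gemcitabine. Per kilobase of the canonical transcript the range widened to at least 42.1-fold in every library. The spread over subunits depends on the transcript length assumed. The order changed too, with PSMD2 at 157 and 159 in vehicle, against 364 and 376 for PSMA7 and 353 and 357 for PSMB7.

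**Figure D3:**
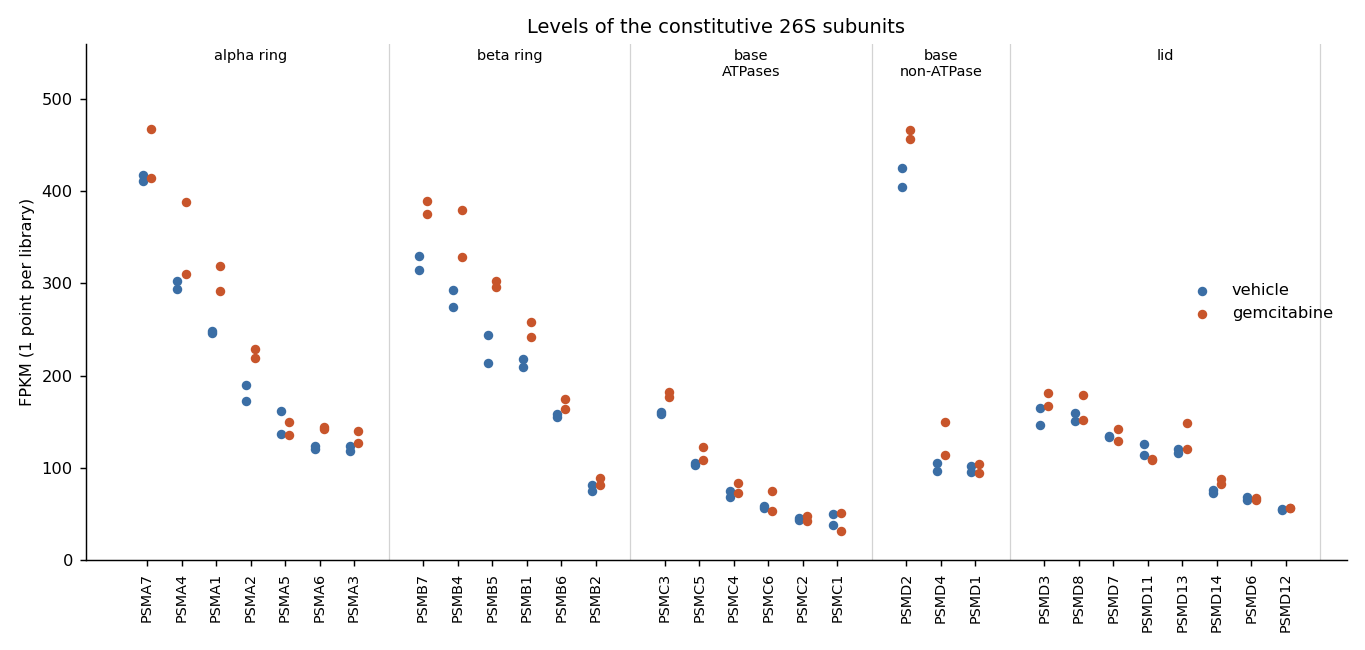
FPKM of the 30 constitutive subunits in each library, grouped by place in the complex and ordered by mean vehicle level. PSMA7 and PSMD2 lie near 414 and 415 FPKM in vehicle, and the ATPases lie mostly below the alpha and beta rings.

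The proteasome acts with partners that deliver, edit and recycle ubiquitin. Of 31 listed partners, 2 rose and 10 fell (38.7% past the threshold, against 38.5% of all genes, with a median log2 fold change of -0.09). With library totals as the scale, 7 rose and 6 fell and the median turned to 0.02. Of 4 shuttle receptors, which carry tagged proteins to the proteasome, 3 fell, namely UBQLN2 (-0.55), UBQLN4 (-0.49) and RAD23B (-0.42). UBQLN1 was at -0.17 and did not pass (adjusted p = 0.0543, edgeR). These 3 also passed when scaled to library totals, with values from -0.44 to -0.31. In limma on FPKM none of the 31 partners passed, including those named below.

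ECPAS, an adaptor that binds the assembled proteasome, was the only partner called, with 205 and 210 CPM in vehicle, 131 and 141 CPM in gemcitabine and a log2 fold change of -0.61 ± 0.07 (adjusted p = 8.33e-06, edgeR). At library totals it stood at -0.50, past the test but short of the limit on fold. UCHL5, a deubiquitinase of the regulatory particle, and UBE3C, a ligase that extends chains on the proteasome, were at -0.28 and -0.25. ADRM1, the ubiquitin receptor that holds UCHL5, was at -0.22 and ZFAND5, a proteasome activator, at -0.18. Each of these passed the test, but at library totals UCHL5, UBE3C, ADRM1 and ZFAND5 did not.

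NFE2L1, the factor that raises proteasome genes when the proteasome is inhibited, had 214 and 213 CPM in vehicle and 202 and 224 CPM in gemcitabine and did not pass (log2 fold change -0.01 ± 0.07, adjusted p = 0.951, edgeR). DDI2, the protease that releases NFE2L1 from the membrane, fell by 0.58 (SE 0.08, adjusted p = 8.58e-05, edgeR). The related factor NFE2L3 fell by 0.77 (SE 0.17, adjusted p = 0.00257, edgeR). NFE2L3 was low, at 2.30 and 2.10 FPKM in vehicle and 1.18 and 1.54 FPKM in gemcitabine. Its condition means differed by less than the 1 FPKM that a call needs. POMP, the maturation protein of the core, was at 0.18 and did not pass (adjusted p = 0.0503, edgeR). When scaled to library totals it passed, at 0.29 (adjusted p = 0.0038, edgeR). The 2 partners that rose were UBB, which encodes ubiquitin, and PAAF1, an inhibitor of base and core joining, both at 0.23. Their adjusted p was 0.0223 and 0.0476 (edgeR), and neither passed in limma on FPKM or without a filter on low counts. By FPKM, PAAF1 overlapped between conditions (42.2 and 31.4 in vehicle, 35.6 and 43.7 in gemcitabine).

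**Figure D4:**
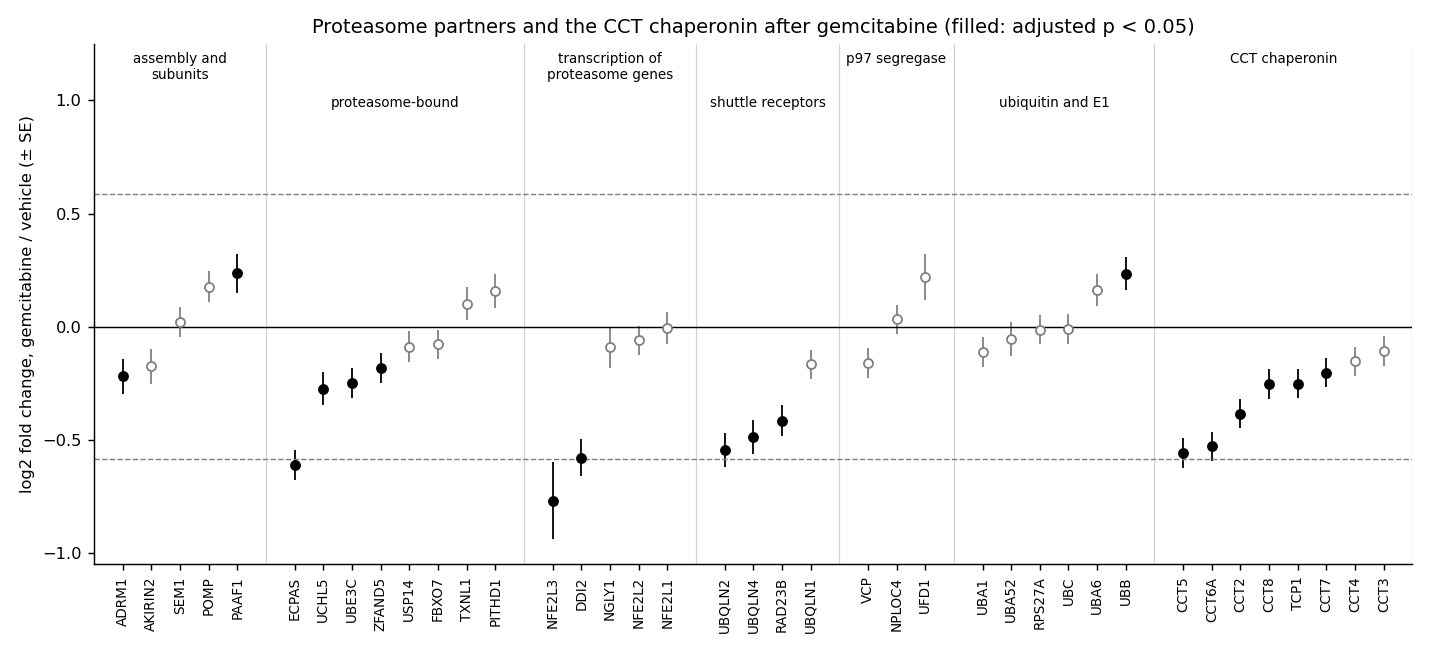
Log2 fold change (gemcitabine over vehicle, ± SE) of the 31 partners by role and of the 8 genes of the CCT chaperonin. Filled points have an adjusted p under 0.05 (edgeR) and dashed lines mark a fold of 1.5 either way. Of the shuttle receptors 3 of 4, and of the CCT genes 6 of 8, fell.

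For comparison, other large complexes of many subunits were read by the same fit. The COP9 signalosome, a relative of the lid, had 2 genes higher and 1 lower of 10 (median log2 fold change -0.02, which turns to 0.09 when scaled to library totals). Of the translation factor eIF3, 6 of 13 genes fell and 0 rose (median -0.14, or -0.03 when scaled to library totals), and of the CCT chaperonin, which folds cytoskeletal proteins, 6 of 8 fell and 0 rose (median -0.25), or 3 of 8 when scaled to library totals. The constitutive subunits of the proteasome had 4 higher and 1 lower of 30 (median 0.05), or 13 higher and 0 lower (median 0.16) when scaled to library totals. Over all genes 18.5% were higher and 20% lower, and at library totals 6050 of 14854 passed in either direction. When a library was left out, the median of the 30 proteasome subunits ranged from -0.01 (without gemcitabine replicate 1) to 0.10. That of the COP9 signalosome ranged from -0.05 to 0.03, of eIF3 from -0.22 to -0.12 and of CCT from -0.27 to -0.23. The difference between complexes was not tested.

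DNaseI peaks at the members' starts were then read from the peak list of each condition, which come from 1 library each, so that there is no test. A peak lay within 1 kb of a start for 22 of 46 members in vehicle (47.8%, 95% Wilson interval 34.1 to 61.9%) and for 20 in gemcitabine (43.5%, 30.2 to 57.8%). The intervals treat genes as independent draws, measure no spread between libraries and are no test against all genes. Over the 14154 tested genes with a start, the shares were 27.8% in vehicle and 32.2% in gemcitabine. Both lists held a peak for 14 members, vehicle alone for 8, gemcitabine alone for 6 and neither for 18.

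The peaks present in 1 list only were mostly weak. Their MACS scores, which are -10 times log10 of the p-value and start at 50, ran from 50.3 to 109 with a median of 61.5. Where both lists held a peak, the median was 78.4 in vehicle and 103 in gemcitabine. PSMB5, whose promoter window held 287 bases of the vehicle peak and 156 of the gemcitabine peak, had scores of 69.1 and 111.

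Genes that moved showed no single pattern of peaks. The PSME2 window lay wholly in a vehicle peak (score 65.6) with no gemcitabine peak, and its RNA rose. The PSMG1 window lay wholly in a gemcitabine peak (score 61.8) with no vehicle peak, and its RNA fell. PSME1 had no peak in either list, and PSME3 had a vehicle peak (score 63.6) at another of its starts. With a score of at least 100 the counts were 4 members in vehicle (8.70%, beside 1132 of 14154 genes) and 9 in gemcitabine (19.6%, beside 1402 genes).

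**Figure D5:**
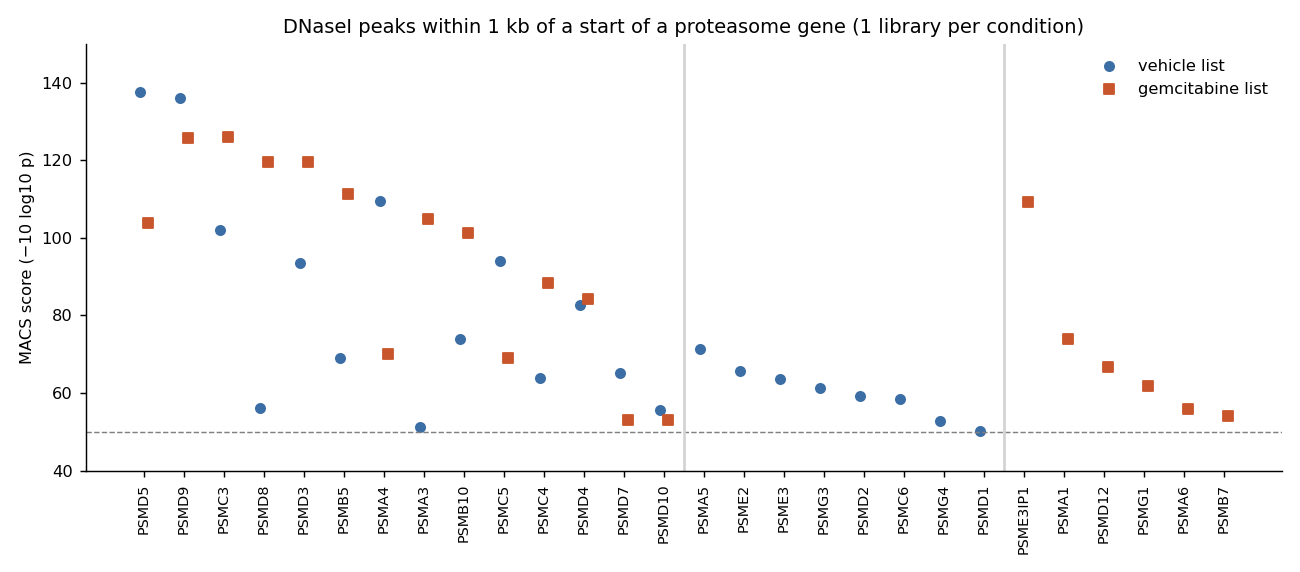
MACS scores of DNaseI peaks within 1 kb of a start, for the 28 members with a peak in at least 1 list (1 library per condition). Members left of the first grey line have a peak in both lists, those between the lines in vehicle only and those on the right in gemcitabine only. The dashed line is the lowest score of a list, 50.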

How the data were processed

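The authors aligned single-end RNA-seq reads to hg19 with TopHat2 2.0.8, and Cuffdiff 2.0.2 assigned them to Gencode 15 protein-coding genes. The deposited estimated counts are fragments per gene and library and were rounded here. Of all values 89.5% are whole within 0.001. The deposited FPKM is scaled per length by Cuffdiff. The 2 columns of scaled counts were not used. Cuffdiff marked 2 members (PSMA6 and PSMD2) as failed in at least 1 library, and they were kept. Peaks were called by the authors with MACS at 1e-05, and the deposited score is -10 times log10 of the p-value.

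Counts were tested with edgeR 4.0.16 in R 4.3.3, TMM scaling and no covariate (library totals 13194533 to 15766237), and the test was checked on simulated data. Alternatives used DESeq2 1.42.0 and limma 3.58.1. Standard errors were taken from the F statistics. Starts came from Gencode 44 lifted to hg19. Replicate numbers follow the index of the table and only tell libraries apart. The members and lists were chosen with earlier results of these data known. Named in full were the called member, those with the largest rise and fall past the threshold, the catalytic and exchangeable subunits, the activators and inhibitor, the core assembly chaperones and the tissue-restricted subunits. Protein sequences were not used here, and 1 gene of the partner list is not reported here.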

Additional observations from a re-analysis of the deposited data

How the results depend on the processing

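Of 598 alternative values for single members, 517 kept their direction and side of the threshold (or turned sign while not past it), 23 passed it anew, 58 no longer passed and 0 turned direction while past it. The count of members called higher was 0 with limma on log2(FPKM + 0.1) or log2(FPKM + 1), and with the replicate block. It was 0 to 1 when a library was left out, with 0 without gemcitabine replicate 1 or vehicle replicate 2. The count called lower was 0 to 1, with 1 (PSMG4) without gemcitabine replicate 1. A fold over 1.2 gave 2 higher and 3 lower, and the share of all genes at that fold is not given here. Members higher and lower at an adjusted p under 0.05 numbered 17 and 3 with library totals, 0 and 1 with limma and 0.1, 0 and 0 with limma and 1, and 3 and 1 with limma, 1 and a filter on mean FPKM. Over all genes tested, 6050, 870, 532 and 1868 passed in these fits in either direction. No filter on low counts gave 3 lower, and an adjusted p under 0.01 gave 3 and 3. Leaving out a library gave 1 to 14 higher and 1 to 6 lower. Without either vehicle replicate each direction held 1, and 2746 or 2609 of all genes passed in place of 5726. The median of the members became 0.135 with library totals and 0.127, 0.124 and 0.132 in the limma fits, beside medians of all genes of 0.117, 0.119, 0.085 and 0.105, and ranged from -0.01 to 0.07 when a library was left out. Peaks scoring at least 100 gave 4 and 9 members. The cause of these differences was not tested.

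With the replicate number as a block, 13 members passed, among them all 11 of the reported fit. Over all genes, 5877 of 14854 passed in that fit. Whether libraries were prepared in pairs is not known, since the numbers only tell them apart. The correlation of same-numbered deviations was -0.02 over 10600 genes, which cannot decide it. Coding lengths of RefSeq were not used here, and canonical lengths took their place. Depth limits PSMA8 most, with 63 to 99 fragments per library and a standard error of 0.20, against 0.06 to 0.13 for the other members.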
